A study of Mus musculus with 3 samples.

Results

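Regulators of G protein signalling (Rgs proteins) were followed through 8 genes, Rgs1, Rgs2, Rgs3, Rgs10, Rgs14, Rgs16, Rgs18 and Rgs19, in mouse bone marrow-derived dendritic cells. A gene was followed by the probe sets that the platform annotation gave to it alone. These were 18 probe sets for the 8 genes, out of 18193 genes with a probe set of their own, and 0 probe sets were shared with another gene. Gene expression was measured on 3 Affymetrix Mouse 430 2.0 arrays, 1 for each condition. All 3 cultures were bone marrow cells kept for 10 days with GM-CSF, a growth factor for myeloid cells, at 10 ng/ml. The unstimulated culture, BMDC(-), had no agent. The LPS culture, BMDC(+LPS), had lipopolysaccharide, a bacterial outer membrane component, at 10 ng/ml for 3 h. The third culture, BMDC(+LPS+cAMP), had the same LPS together with 100 µM 8-Br-cAMP, a form of cyclic AMP, a second messenger, that can enter cells, for 3 h. No mouse strain, sex or age is given in the labels, and no 8-Br-cAMP culture without LPS is among them.

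A G protein-coupled receptor switches on a G protein by loading its alpha subunit with GTP, and the signal lasts until that GTP is hydrolysed. Rgs proteins bind the active alpha subunit through their RGS domain and speed up the hydrolysis, so they shorten and weaken signals from receptors coupled to Gi and Gq, among them the chemokine receptors that steer dendritic cells. Rgs1, Rgs2, Rgs3, Rgs16 and Rgs18 belong to the R4 subfamily of small Rgs proteins, Rgs10 and Rgs14 to the R12 subfamily and Rgs19 to the RZ subfamily. Rgs2 is known as a gene that cyclic AMP can switch on, and as an inhibitor of Gq.

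Rgs2 and Rgs10 had lower signals with LPS and higher ones again with 8-Br-cAMP, although Rgs10 was under 2-fold in both steps under the main scaling, and Rgs16 had the opposite course, so the promoter windows of these 3 genes are shown. Each covers 250 bases before and 50 bases after a transcription start in RefSeq's GRCm38.p6. The windows are chr1:144004100-144004399 on the minus strand for Rgs2, chr7:128418123-128418422 on the minus strand for Rgs10 and chr1:153740103-153740402 on the plus strand for Rgs16. Capitals mark the letters TGACG, the short form of the cyclic AMP response element, or their complement CGTCA.
Rgs2: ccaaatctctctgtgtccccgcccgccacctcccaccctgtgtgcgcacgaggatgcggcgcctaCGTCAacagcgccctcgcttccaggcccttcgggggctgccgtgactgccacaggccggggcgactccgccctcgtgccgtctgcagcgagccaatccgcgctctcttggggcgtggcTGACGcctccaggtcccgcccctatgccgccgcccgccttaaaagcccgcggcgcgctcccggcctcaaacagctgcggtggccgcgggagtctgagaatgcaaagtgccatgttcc
Rgs10: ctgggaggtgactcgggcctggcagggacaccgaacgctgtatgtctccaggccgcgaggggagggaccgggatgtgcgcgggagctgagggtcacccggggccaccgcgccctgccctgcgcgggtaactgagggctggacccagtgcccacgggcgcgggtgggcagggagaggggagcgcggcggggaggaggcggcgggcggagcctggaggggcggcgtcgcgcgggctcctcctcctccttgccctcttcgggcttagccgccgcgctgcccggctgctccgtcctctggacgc
Rgs16: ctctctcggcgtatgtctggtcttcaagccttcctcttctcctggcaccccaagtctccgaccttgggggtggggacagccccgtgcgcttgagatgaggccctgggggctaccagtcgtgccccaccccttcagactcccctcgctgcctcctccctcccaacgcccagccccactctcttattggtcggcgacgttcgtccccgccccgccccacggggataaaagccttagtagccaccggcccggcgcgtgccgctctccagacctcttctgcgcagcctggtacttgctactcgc
The Rgs2 window held TGACG at 2 places, 1 on each strand, with first bases 185 and 67 bases before the start. The windows of Rgs10 and Rgs16 held none, nor did the 3 windows of Rgs19 and the 2 of Rgs3. TGACG was present in 20.8% of 32851 RefSeq promoter windows of the same length. The full element TGACGTCA, which contains TGACG, was in 1.79% of all windows and in 0 of the 8 windows of these 5 genes. The NF-kB letters, GGG and CC with any 5 bases between them, were in 6 of the 8 windows, against 50.8% of all windows. Those 6 include the 3 windows of Rgs19, of which 2 overlap. The STAT letters TTCNNNGAA were in 0 of 8, against 8.3%. No window was available for Rgs1, Rgs14 and Rgs18, so these genes were not searched. Both strands were searched, and a match in letters is not a binding site.

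The arrays differed in brightness, and the deposited median signals were 42.6, 33.4 and 19.8 for unstimulated, LPS and LPS+8-Br-cAMP. Each was multiplied to a common trimmed mean, by 0.763, 0.929 and 1.63 in that order. Signals under a floor of 32.5, the highest array median after scaling, were set to it before log2 differences were taken. A difference against an array under the floor is therefore a minimum, given with the words at least. For the same reason, counts of genes that differ as far as a member or farther are minimums. All 8 Rgs genes were above the floor on all 3 arrays by their brightest probe set, which represents the gene below, and 12 of the 18 probe sets were. With 1 array per condition no difference has a replicate check, no test was made, and only the difference between these cultures is described. As a scale of technical scatter, the log2 difference of 1 probe set differed from that of another probe set of the same gene with an SD, divided by the square root of 2, of 0.45 for LPS against unstimulated, 0.48 for LPS+8-Br-cAMP against LPS and 0.56 for LPS+8-Br-cAMP against unstimulated. This is called the probe set scatter below and leaves out the spread between cultures. In bulk RNA, fewer cells of a type and less RNA per cell cannot be told apart.

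All 15 of 15 dendritic cell markers on the array were above the floor in every culture. Their scaled signals summed to 35014, 46200 and 55802 in unstimulated, LPS and LPS+8-Br-cAMP cultures. The largest of these signals were H2-Aa and Cd74, at 13876 and 13714 with 8-Br-cAMP, against 10014 and 9664 with LPS. For 8-Br-cAMP against LPS the list's median was 0.23, with 3 of 15 at least 2-fold higher and 1 lower, Irf8 (-1.30). The 8-Br-cAMP culture also stood apart in transcripts of sex and of other cells. Xist, made from the inactive X of females, read 1716 there and was under the floor in both other cultures, where the Y-linked gene Eif2s3y read 352 and 272, against a value under the floor with 8-Br-cAMP. Of 13 granulocyte markers on the array, 8 were at least 2-fold lower with 8-Br-cAMP than with LPS, and their summed signals were 43416 unstimulated, 45531 with LPS and 24018 with 8-Br-cAMP. B and plasma cell markers summed to 5408, 3339 and 534 in the same order. Most of that step was in 3 immunoglobulin-related transcripts, Ighm at 1495 with LPS and 52.5 with 8-Br-cAMP, Igha at 881 and 57.0, and Jchain, whose signal was 529 with LPS and under the floor with 8-Br-cAMP. The list's median was -0.38, with 3 of 10 measured markers at least 2-fold lower and 0 higher. The labels do not name the donor mice. By Xist and Eif2s3y the 8-Br-cAMP culture read as female cells and both others as male cells, so it did not come from the same mouse as they did. With 1 culture per condition, a difference with 8-Br-cAMP cannot be told apart from a difference between mice or sexes. The part of these differences in the Rgs values was not tested. Marker values are set beside Rgs18 below. The share of genes past 2-fold that were higher depended on the scaling: 33.8% for LPS against unstimulated, 15.7% to 45.7% under 5 other scalings, and 52.8% for LPS+8-Br-cAMP against LPS, 3.13% to 66.4% under them. The median of all measured genes was -0.21 for LPS against unstimulated, -0.51 to -0.097 under those scalings, and 0.049 for LPS+8-Br-cAMP against LPS, -0.65 to 0.16 under them.

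The comparison of LPS with unstimulated cells asks which Rgs genes differed with LPS. Of the 8 genes, Rgs1 and Rgs16 were at least 2-fold higher and Rgs2 and Rgs19 at least 2-fold lower. Over the whole array, 6.64% of 12283 measured genes reached 2-fold upward and 13% downward. The members' median log2 difference was -0.12, against -0.21 for all measured genes, and -0.45 to 0.10 under the other scalings. The members spread from -3.28 for Rgs2 to 1.45 for Rgs16, and for these probe sets that gap of 4.73 does not depend on the factor by which an array is multiplied.

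The next comparison, LPS+8-Br-cAMP against LPS, asks what differs when the analogue is given as well. Rgs2 was the only one of the 8 at least 2-fold higher and Rgs18 the only one at least 2-fold lower. Over the whole array, 6.49% of 12572 measured genes reached 2-fold upward and 5.81% downward. The members' median was -0.18, against 0.049 for all genes, and 3 were above 0 and 5 below. It was -0.98 to -0.040 under the other scalings, but 0.43 with a floor at the 75th percentile and 0.92 with only probe sets ending in _at, which left 6 and 4 of the 8 genes measured. Rgs1 at 0.94 and Rgs10 at 0.89 lay just under 2-fold, and Rgs19 at -0.75 was next on the lower side. Both Rgs1 and Rgs10 were near no difference in the signals as deposited, at 0.13 and 0.086, where that array is the dimmest. The spikes added at hybridisation were also dimmer on that array, at 0.519 times their mean on the LPS array, and with arrays scaled by these spikes both genes passed 2-fold, at 1.07 and 1.03.

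**Figure D1:**
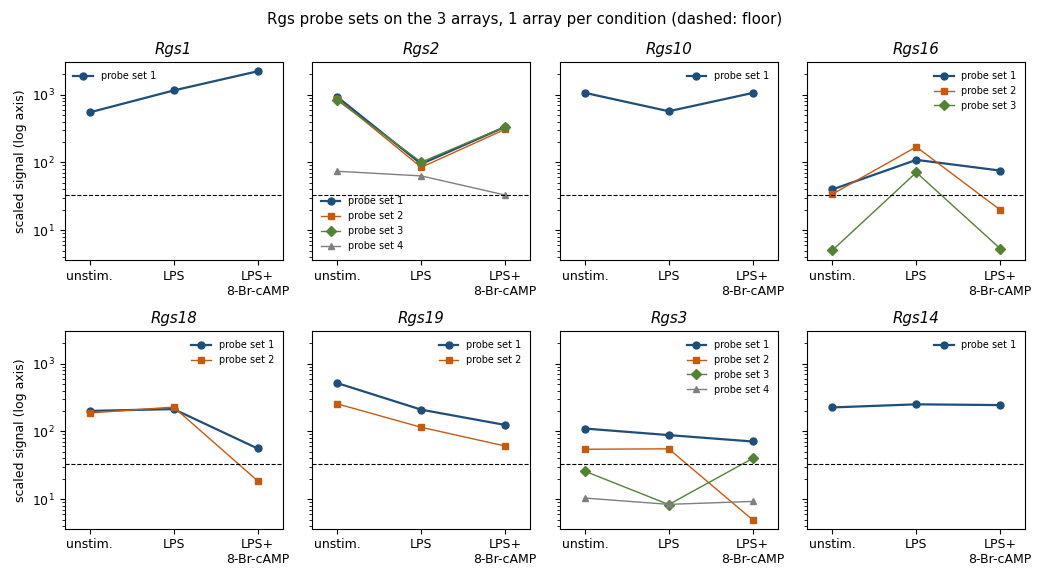
Scaled signal (log axis) of every probe set of the 8 Rgs genes on the 3 arrays, 1 array per condition, with probe sets numbered by mean signal within a gene and the floor of 32.5 as a dashed line. The 3 bright Rgs2 probe sets drop with LPS and come part of the way back with 8-Br-cAMP, Rgs10 returns to its unstimulated signal, and both Rgs18 probe sets are low with 8-Br-cAMP only.

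Among the R4 genes, Rgs2 showed the largest difference. Its brightest probe set read 922 unstimulated, 94.7 under LPS and 334 under LPS+8-Br-cAMP. The other bright probe sets read 869, 84.6 and 307, and 823, 101 and 335 in the same order. The LPS culture was the lowest and the unstimulated culture the highest by all 3. Rgs2 was thus 9.74-fold lower with LPS, by -3.28 on the log2 scale, and the other bright probe sets gave -3.36 and -3.03. Of 12283 measured genes 7, Rgs2 included, were as far down, a minimum because signals under the floor were raised to it. With 8-Br-cAMP it was 3.52-fold higher than with LPS, by 1.82, and 1.86 and 1.73 by the others, all well above the probe set scatter of 0.48. Only 105 of 12572 genes, 0.835%, were that high or higher. The signal with LPS+8-Br-cAMP was 36.2% of the unstimulated one, so Rgs2 remained lower there, by -1.47. The remaining, dim probe set did not follow this course, at 74.0, 63.2 and 33.0, and gave -0.23 for LPS and -0.94 for 8-Br-cAMP against LPS.

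Rgs2 was past 2-fold in the same direction in both comparisons under all 5 other scalings, from -3.62 to -3.20 for LPS and from 1.01 to 1.95 for 8-Br-cAMP. The lowest value, 1.01, came from the signals as deposited.

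Rgs1, which restrains chemokine receptor signalling and migration in lymphocytes, was the member that was higher in both steps. Its only probe set read 547 unstimulated, 1150 under LPS and 2205 under LPS+8-Br-cAMP. The 3 cultures stood in that order, each step being near 2-fold. Rgs1 was 2.10-fold higher with LPS (log2 difference 1.07) and 1.92-fold higher again with 8-Br-cAMP (0.94). Against unstimulated cells the 8-Br-cAMP culture was 4.03-fold higher (2.01), a difference met or passed by 319 of 12793 measured genes, 2.49%. The LPS step ranged from 0.74 to 1.14 under the other scalings and from 0.92 to 2.02 for the whole difference from unstimulated cells. It was under 2-fold for LPS in 4 of the 5, at 0.92 under quantile normalization, 0.99 under cyclic loess, 0.74 under spike scaling and 0.79 as deposited.

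Rgs16, an R4 protein that acts on Gi and Gq and is known as inducible in activated immune cells, was high in the LPS culture. Its brightest probe set read 39.9 unstimulated, 109 under LPS and 75.8 under LPS+8-Br-cAMP. A second read 34.1, 169 and a value under the floor, and the third was above the floor with LPS only, at 71.1. The LPS culture was the highest by all 3 probe sets, and all 3 were dim. Rgs16 was 2.73-fold higher with LPS (1.45), 4.96-fold by the second probe set and at least 2.18-fold by the third. The probe sets disagreed on the size of the step to 8-Br-cAMP, which was -0.52 by the brightest, at least 5.20-fold lower by the second and at least 2.18-fold lower by the third. The mean of the probe sets gave -1.34. Median scaling and the signals as deposited gave -2.45 and -2.10, as the second probe set became the brightest there. These values and the mean rest on 8-Br-cAMP signals raised to the floor, so the drops were at least that large.

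Rgs18, an R4 protein best known from platelets and megakaryocytes and found in other myeloid cells too, was past 2-fold with 8-Br-cAMP against LPS but not with LPS alone. Its brightest probe set read 200 unstimulated, 213 under LPS and 56.1 under LPS+8-Br-cAMP. The second read 187 and 228, and was under the floor with 8-Br-cAMP. Both other cultures were alike, and the 8-Br-cAMP culture was low by both probe sets. Rgs18 was 3.80-fold lower with 8-Br-cAMP than with LPS (-1.93), and at least 7.01-fold lower by the second probe set. Of 12572 measured genes 56, 0.445%, were as low or lower. LPS against unstimulated gave 0.089, below the probe set scatter. The lower value with 8-Br-cAMP was past 2-fold under all 5 other scalings, from -2.43 to -1.79. The drop of -2.43, from the signals as deposited, is a minimum, as the deposited 34.4 lay under that setting's floor of 42.6. It was -0.97 with a floor at the 75th percentile, which the dim signal with 8-Br-cAMP did not reach.

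Markers of platelets and granulocytes moved with Rgs18 in part. All 6 megakaryocyte and platelet markers on the array, of 8 listed, were above the floor in every culture. They summed to 8313 unstimulated, 9576 with LPS and 7218 with 8-Br-cAMP. Of the 6, 2 were at least 2-fold lower with 8-Br-cAMP than with LPS and 0 higher, against 5.81% and 6.49% of all measured genes. The 2 were Gp1bb, a chain of the platelet adhesion receptor, at -1.67 and the platelet chemokine Ppbp at -1.53. Itga2b differed by -0.94, Gp9 by -0.36, Pf4, the platelet factor, by -0.13 and Gp6 by 0.33. The median of the 6 was -0.65. Granulocyte markers had a median of -1.16, with 8 of 13 at least 2-fold lower. Lcn2 at -0.29 and Mmp8 at -0.069 differed least. Camp, a granule peptide of that list, was among the 3 genes most like Rgs18. The part of these markers in the Rgs18 difference was not tested.

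Rgs3, the remaining R4 member, was under 2-fold in every comparison. Its brightest probe set read 110 unstimulated, 88.2 under LPS and 71.0 under LPS+8-Br-cAMP. The log2 differences were -0.32 for LPS and -0.31 for 8-Br-cAMP against LPS, both below the probe set scatter. A second probe set read 54.5 and 55.3 and was under the floor with 8-Br-cAMP, at least 1.70-fold lower. The third was above the floor with 8-Br-cAMP only, at 39.9, and the last was under it on all 3 arrays. As deposited, without scaling, Rgs3 was past 2-fold for 8-Br-cAMP against LPS, at -1.12.

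Among the R12 genes, Rgs10, a small Rgs protein selective for Gi and well known from microglia and macrophages, was lower with LPS only. Its 1 probe set read 1061 unstimulated, 568 under LPS and 1056 under LPS+8-Br-cAMP. The LPS culture stood below both others, which were nearly equal. The log2 difference was -0.90 with LPS and 0.89 with 8-Br-cAMP against LPS, and the 8-Br-cAMP signal was 99.6% of the unstimulated one. Both steps were about 1.9-fold, under the 2-fold threshold but above the probe set scatter. They share the LPS reading of 1 probe set, so they are not independent of each other. The LPS step ranged from -1.24 to -0.83 over the other scalings and passed 2-fold under 3 of the 5, at -1.10 under quantile normalization, -1.24 under spike scaling and -1.18 as deposited. The equality with unstimulated cells held under 4 of the 5, where the difference was -0.28 to 0.0065, and not as deposited, where it was -1.10.

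Rgs14, an R12 protein that also carries Ras-binding domains and a GoLoco motif, varied least. Its probe set read 226, 251 and 244 in the 3 cultures, in the order unstimulated, LPS and LPS+8-Br-cAMP. The log2 differences were 0.15 for LPS and -0.037 for 8-Br-cAMP, below the probe set scatter, and both changed sign under some of the other scalings.

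Rgs19, the RZ member, acts on Gi-class alpha subunits and was lower in each step. Its brightest probe set read 515 unstimulated, 209 under LPS and 125 under LPS+8-Br-cAMP. The second read 255, 115 and 60.9. The 3 cultures stood in the same order by both, which is the reverse of the order for Rgs1. Rgs19 was 2.46-fold lower with LPS (-1.30, and -1.15 by the second probe set). With 8-Br-cAMP it was a further 1.68-fold lower (-0.75 and -0.92), under 2-fold, and 4.14-fold lower than unstimulated (-2.05 and -2.06). That last difference was past 2-fold under all 5 other scalings, from -3.14 to -1.85, and 246 of 12793 genes, 1.92%, were as low or lower.

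**Figure D2:**
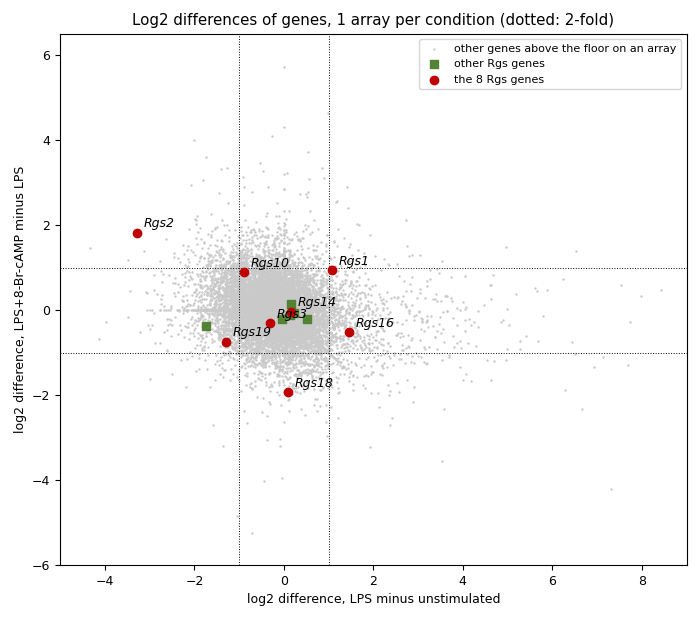
Log2 difference of LPS minus unstimulated (horizontal) against LPS+8-Br-cAMP minus LPS (vertical) for genes above the floor on at least 1 array, with the 8 Rgs genes in red, other Rgs genes in green and 2-fold as dotted lines. Rgs2 lies at -3.28 and 1.82, far to the left and above, Rgs18 at 0.089 and -1.93, and the other members lie nearer the bulk of genes; both axes share the LPS array.

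The comparison of LPS+8-Br-cAMP with unstimulated cells shares its arrays with the other 2. In it, Rgs1 was at least 2-fold higher, as were 9.36% of 12793 measured genes. Rgs2, Rgs18 and Rgs19 were at least 2-fold lower, as were 15.8% of those genes. The members' median was -0.32, against -0.12 for all genes, and -1.41 to -0.21 under the other scalings.

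**Figure D3:**
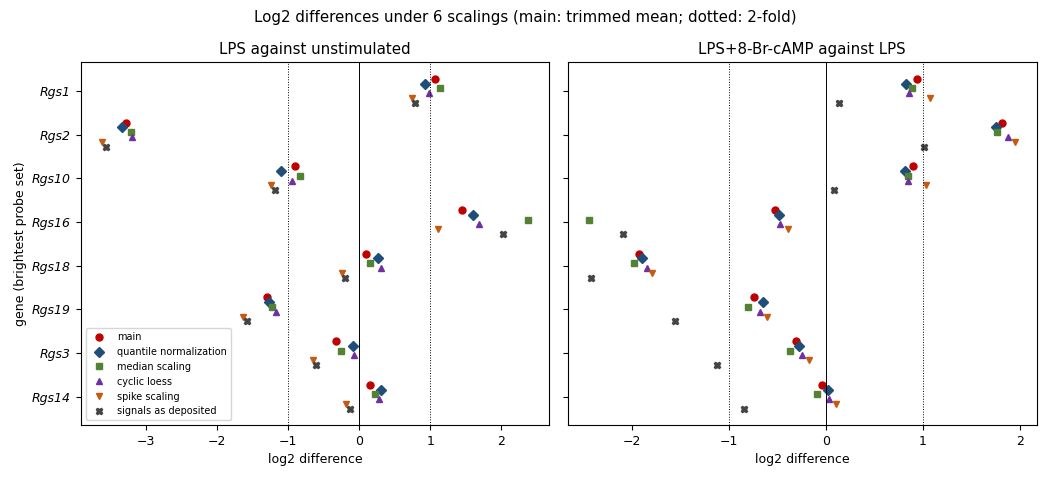
Log2 difference of each Rgs gene under the main trimmed-mean scaling and 5 other scalings, for LPS against unstimulated (left) and LPS+8-Br-cAMP against LPS (right), with 2-fold as dotted lines. Values as deposited sit lowest on the right for every gene but Rgs16, at 0.13 for Rgs1 and 0.086 for Rgs10, while Rgs2 stays past 2-fold at every point; the Rgs16 points at -2.45 and -2.10 come from its second probe set.

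The genes with the course most like a member's were found from both log2 differences, LPS minus unstimulated and LPS+8-Br-cAMP minus LPS, over the 3 arrays. Likeness was the straight-line distance between the pairs of differences, among 9078 genes above the floor on all 3 arrays, for the 5 members past 2-fold in either comparison. Rgs2 had 1 gene within a distance of 0.5, Arrdc3, an arrestin-domain protein, at -3.13 and 1.39. The next were Camk2g, a calmodulin-dependent kinase, at -2.78 and 1.16, and the interferon gamma receptor chain Ifngr1 at -2.46 and 1.35. For the other members, 102 genes lay within 0.5 of Rgs1, 178 of Rgs16, 51 of Rgs18 and 245 of Rgs19. Genes under the floor on any array were left out, also any that dropped under it with LPS, so the counts are not on equal terms. Nearest to Rgs1 were Dcun1d3, Ier3, an immediate early gene, and the proteasome subunit Psma6. Nearest to Rgs16 were Apobec3, an antiviral deaminase, the signalling inhibitor Irak3 and the matrix protease Mmp14. Nearest to Rgs18 were S1pr2, a sphingosine phosphate receptor that is itself G protein-coupled, Camp and Lrp12, and nearest to Rgs19 were Gdap2, Snx19 and Evi5.

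Of 13 other Rgs genes, 11 had a probe set of their own, and 6 of those were above the floor with LPS or unstimulated. Rgs11, of the R7 subfamily, was the only one of the 6 past 2-fold with LPS. It read 140 unstimulated and 42.1 with LPS, and was under the floor with LPS+8-Br-cAMP. That is 3.33-fold lower with LPS (-1.74). Over all measured genes, 13% were at least 2-fold lower with LPS and 6.64% higher. With 8-Br-cAMP against LPS, 0 of 6 measured genes were past 2-fold, while 6.49% of all measured genes were higher and 5.81% lower. Rgs9 read 76.4, 109 and 93.5 in the 3 cultures, and Rgs13, a B cell member of the R4 subfamily, was under the floor in all of them.

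Receptor kinases and arrestins, which switch off and remove the activated receptor, had 2 of 5 measured genes at least 2-fold lower with LPS and 0 higher. Over all measured genes, 13% were that much lower with LPS and 6.64% higher. Arrb1, a beta-arrestin, read 627 unstimulated, 112 under LPS and 87.0 under LPS+8-Br-cAMP, a log2 difference of -2.49 with LPS. Grk6, a kinase of chemokine receptors, was lower with LPS by -1.32, and -1.19 and -1.24 by its other probe sets. Grk3 was lower with 8-Br-cAMP, by -1.36 against LPS, and -1.18 and -1.80 by the others. Of 9 other proteins with an RGS-like domain, 1 was past 2-fold with LPS and 1 with 8-Br-cAMP against LPS. In LPS+8-Br-cAMP against unstimulated cells, 3 were at least 2-fold lower, as were 15.8% of all measured genes. Snx25, a sorting nexin, was higher with 8-Br-cAMP by 1.19. GoLoco proteins, which hold inactive Gi, were listed together with the Ric8 exchange factors, 7 measured in all. Of these, the GoLoco protein Gpsm2 was higher with LPS by 1.55 and Gpsm3 lower by -1.27.

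Of the alpha subunits that Rgs proteins act on, 4 of the Gi, Go and Gz class were measured, and 0 were past 2-fold in either comparison. Their medians were -0.071 with LPS and 0.032 with 8-Br-cAMP against LPS. Of 3 Gq-class subunits, Gna11 was higher with 8-Br-cAMP by 1.08, but its second probe set gave -0.82. Gna12 of the G12 class was lower with LPS by -1.29. Among 12 measured beta and gamma subunits, Gnb4 was higher with LPS by 1.08, with 0.94 and -0.47 by its other probe sets, and Gng2 and Gnb5 lower by -1.04 and -1.02. Among 13 with 8-Br-cAMP against LPS, Gng11 was lower by -1.25.

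Of the effectors, which carry the signal on from the G protein, 3 were past 2-fold upward and 2 downward with LPS, among 13 measured. The shares over all measured genes were 6.64% upward and 13% downward. Among the higher ones were Pik3r5 (1.46), a regulator of the phosphoinositide kinase that G beta-gamma activates, and the phospholipase Plcb3 (1.29). The lower ones were Pik3cg (-1.30), the catalytic subunit of that kinase, and Adcy7 (-1.44), an adenylate cyclase. Adcy7 was lower again with 8-Br-cAMP, by -1.51, and by -2.17 and -1.74 by its other probe sets. Pik3cg was higher with 8-Br-cAMP by 1.15, but its second probe set gave -0.92.

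Of 18 measured Gi-coupled myeloid receptors, 5 were at least 2-fold higher with LPS and 5 lower, with a median of 0.30. The shares over all measured genes were 6.64% higher and 13% lower. Hcar2, the nicotinic acid receptor, was higher by 2.55. Cxcr4, the Cxcl12 receptor, was lower by -4.14, Ccr2 by -2.88 and the fractalkine receptor Cx3cr1 by -2.29. With 8-Br-cAMP against LPS, 2 were higher and 3 lower, with a median of -0.43, against 6.49% and 5.81% of all measured genes. The lymph node homing receptor Ccr7 was 2.83-fold higher and the chemokine receptor Ccr1 2.50-fold. The complement receptor C3ar1 was lower by -2.63, the nucleotide receptor P2ry13 by -1.68 and Cx3cr1 by at least 2.26-fold. With all lists joined, LPS gave 10 higher and 15 lower past 2-fold among 81 measured genes (median -0.059). For 8-Br-cAMP against LPS, 5 were higher and 6 lower among 83 (median -0.081), which lies near the 6.49% and 5.81% over all measured genes.

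**Figure D4:**
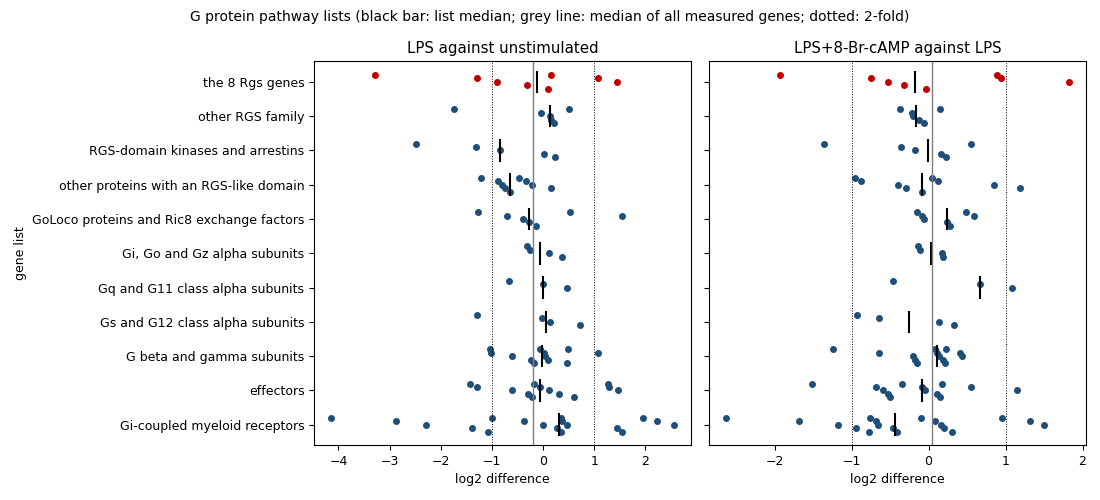
Log2 differences of the measured genes of each list, 1 point per gene, for LPS against unstimulated (left) and LPS+8-Br-cAMP against LPS (right), with list medians as black bars, the median of all measured genes as a grey line and 2-fold as dotted lines. Receptors and the 8 Rgs genes spread widest, and the Gi, Go and Gz alpha subunits all lie within 2-fold.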

How the data were processed

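RNA from 3 cultures was hybridised to 3 arrays, 1 per condition. The deposited table holds linear signal intensities, 1 per probe set, which the authors computed by MAS5, going by the submitters' processing notes. Its version, and the target it scaled to, were not given in the sources used here. Precision is limited by the number of arrays. Of 45101 probe sets 64 controls were left out, 34945 had 1 gene in the platform annotation and 932 several. All 8 Rgs symbols matched RefSeq by gene identifier.

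Arrays were multiplied to equal means, trimmed by 2% at each end, and signals under the highest array median were raised to it before log2. The brightest probe set on average stood for its gene, which counted as measured if above that floor on 1 or both arrays of a comparison. Differences were counted at 2-fold, with no test. Pathway genes were named if past 2-fold and among the 4 largest differences of their list. The values of 1 such gene are not reported here. Rgs8, Rgs9, Rgs13, Cx3cr1 with 8-Br-cAMP and the single marker genes were named after their values were seen. The members and all lists were chosen with earlier results of these data known. Scaling and log2 differences were tested on simulated data, for LPS against unstimulated and for genes well above the floor only. Dim genes, the motif search and the likeness search were not tested in this way. Alternatives were 5 scalings, floors at the 25th and 75th percentile, a pseudocount of 16, averaged probe sets, those ending in _at alone, and thresholds of 1.5-fold and 3-fold. limma 3.58.1 ran the cyclic loess and Python 3.11.15 the rest.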

Additional observations from a re-analysis of the deposited data

How the results depend on the processing

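The counts of the 8 genes past 2-fold were recomputed under each alternative. Of these counts, 51 were within 1.5 times the main count and 21 were not. For LPS against unstimulated, the 2 higher genes became 1 under quantile normalization, cyclic loess, spike scaling and as deposited (Rgs16), 1 with a floor at the 75th percentile or only probe sets ending in _at (Rgs1), and 0 at 3-fold. The 2 lower genes became 1 with probe sets ending in _at and at 3-fold (Rgs2), and 3 under quantile normalization, spike scaling, as deposited and at 1.5-fold (Rgs10 added). For LPS+8-Br-cAMP against LPS, the 1 higher gene became 3 under spike scaling and at 1.5-fold (Rgs1 and Rgs10 added). The 1 lower gene became 2 under median scaling and with the mean of probe sets (Rgs16 added) and at 1.5-fold (Rgs19 added), 4 as deposited (Rgs3, Rgs16 and Rgs19 added), and 0 with a floor at the 75th percentile. For LPS+8-Br-cAMP against unstimulated, the 1 higher gene became 2 under quantile normalization, cyclic loess and at 1.5-fold (Rgs16 added) and 0 as deposited, where the 3 lower genes became 5 (Rgs3 and Rgs10 added). Probe sets ending in _at left 4 of the 8 genes measured, and the floor at the 75th percentile left 6 or 7 measured. Changes at 1.5-fold and 3-fold are those of the threshold itself. Under median scaling and as deposited, the Rgs16 value is that of its second probe set. For the other changes the cause was not tested. Of the recomputed log2 differences and medians, 223 moved by less than the probe set scatter and 31 by more, and no gene past 2-fold changed sign. With 1 array per condition, neither a leave-one-out nor a paired analysis was possible, and the labels give no replicate numbers. Dim signals limit the second and dimmer probe sets of Rgs3, Rgs16 and Rgs18, which were under the floor on 1 or more arrays.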

Other observations

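In the RefSeq order of protein-coding genes, Rgs2, Rgs13, Rgs1, Rgs21 and Rgs18 follow each other on chromosome 1 with no other protein-coding gene between them, and all are R4 genes. The 3 measured genes of this row had different courses. Rgs2 was lower with LPS and higher with 8-Br-cAMP, Rgs1 was higher in both steps, and Rgs18 was lower with 8-Br-cAMP only. Rgs13 was under the floor on all 3 arrays, and Rgs21 had no probe set of its own in the annotation. Rgs16 and Rgs8 are neighbours elsewhere on the same chromosome, and Rgs8 was under the floor on all 3 arrays, at 25.8 with LPS.

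Other marker lists gave these summed scaled signals for unstimulated, LPS and LPS+8-Br-cAMP. Macrophage and monocyte markers, 8 on the array, summed to 20542, 27401 and 34933. The increase was mostly in Cd14, at 4222, 10940 and 20763. Comparing 8-Br-cAMP with LPS alone, the list's median was -0.77, with 0 of 8 markers at least 2-fold higher and 2 lower, Mertk (-1.65) and Cx3cr1. Over all measured genes the shares were 6.49% higher and 5.81% lower. T and NK cell markers, 7 on the array, summed to 289, 154 and 154, with 3, 6 and 5 of them under the floor. Mast cell and basophil markers, 7 on the array, summed to 757, 1083 and 1354. The increase was mostly in Hdc, which was under the floor unstimulated and read 539 and 939 after, while Mcpt8 read 219, 120 and 57.7. The list's median was -0.78 for LPS+8-Br-cAMP against unstimulated. Eosinophil markers, 5 on the array, summed to 1336, 1418 and 500.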
